A study of Mus musculus with 13 samples.

Results

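The cyclins and the kinase Cdk6 described here are 10 genes of 17849 in a table of RNA-seq counts from mouse thymocytes: Ccnd1, Ccnd2, Ccnd3, Ccne1, Ccne2, Ccna2, Ccnb1, Ccnb2, Ccno and Cdk6. They were chosen by gene symbol with earlier results of these data known, and each symbol matched 1 Ensembl gene in the table. The cells were sorted CD4+ CD8+ double-positive (DP) thymocytes, the stage of T cell development at which both coreceptors are on the surface. RNA was sequenced from 2 libraries labelled wild type (WT DP R1 and R2) and 2 labelled Rad21 KO (Rad21KO DP R1 and R2). Rad21 is a subunit of cohesin, the ring complex that holds sister chromatids together and shapes chromatin loops, and the series asks what its loss does to transcription in these cells. The RNA labels give no strain, age or sex of the mice and do not say how, when or in which cells Rad21 was deleted. They do not say whether the libraries came from separate mice. The p-values therefore set the genotype difference only against the spread between these libraries, which may be technical.

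Cyclins are the regulatory subunits of cyclin-dependent kinases (CDKs). D-type cyclins (Ccnd1, Ccnd2, Ccnd3) join Cdk4 or Cdk6 in G1 and begin the phosphorylation of the retinoblastoma protein, E-type cyclins (Ccne1, Ccne2) act with Cdk2 at the entry into S phase, cyclin A2 (Ccna2) acts in S and G2, and B-type cyclins (Ccnb1, Ccnb2) drive mitosis with Cdk1. Ccnd3 is known as the D-type cyclin on which the expansion of immature thymocytes depends, and most DP thymocytes are small cells that have stopped dividing. Ccno is an atypical cyclin known for its part in centriole amplification in multiciliated cells.

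Rad21 itself was lower in the libraries labelled knockout, at 67.9 and 65.7 CPM against 271 and 233 in wild type (log2 fold change -1.91, SE 0.12; edgeR adjusted p = 0.000862). CPM is the count scaled to a common library total with TMM factors. It is not divided by gene length, so it compares libraries for a gene and not genes with each other. Totals ran from 6500819 to 9384505 counts, of which the 10 genes held 2890 to 5575. The genes Lars2 and Gm15564, which are not cyclins, together took 34.5% and 12.6% of the counts in the knockout libraries and 5.84% and 7.47% in wild type. The defining DP genes were abundant, with 12 of 12 listed markers tested and a summed level of 10100 to 11500 CPM in the knockout and 14700 to 16200 in wild type. Of these 12, 4 were lower (Rag1, Rag2, Dntt and Themis) and 0 higher, or 33.3% called, beside 12.8% of all genes tested. Of 10 early thymocyte genes, 8 were tested, of which 5 were higher (Ptcra, Notch1, Notch3, Dtx1 and Hes1) and Cd44 was lower. That is 75% called, beside 12.8% of all genes tested. Hes1 was near absent in wild type, with 3 and 0 counts against 36 and 23 in the knockout, so the size of its change is uncertain. Il2ra (log2 fold change -0.03) and Tcf12 (-0.04) did not pass, and Kit and Il7r were too rare to test. The sum of the 10 was 1280 to 1380 CPM in the knockout against 1060 to 1110 in wild type. Tcf12 alone held 787 to 868 CPM of it. The summed levels of other cell types were 59.5 to 66.2 CPM for 8 myeloid or dendritic genes, 2.46 to 4.73 for 4 erythroid genes and 106 to 116 in the knockout against 151 to 154 in wild type for 7 stromal or epithelial genes. Among B cell genes, Cd79b had 91 to 126 counts per library and Blnk 30 to 54, while Cd79a had 1 to 7, Pax5 0 to 2 and Ms4a1 0 or 1. Epcam, an epithelial marker that thymocytes can also express, was higher in the knockout at 9.45 and 11.7 CPM against 1.5 and 0.969. In the same list Pecam1, known from endothelium and also found on leukocytes, was lower (150 and 147 to 96.5 and 103 CPM, log2 fold change -0.58, adjusted p = 0.0143 by edgeR). In the myeloid list Itgam was lower (17.5 and 24 to 8.35 and 8.62 CPM, log2 fold change -1.29, adjusted p = 0.0141 by edgeR). It was the only call among 5 tested genes of that list (20%, beside 12.8% of all genes tested). Fitted values were above 0 for 2 of them and below 0 for 3. Cst3, the most abundant, had 35.9 and 32.3 CPM in wild type and 43.8 and 43.2 in the knockout (log2 fold change 0.35) and did not pass. The part of these differences in the cyclin results was not tested. In bulk RNA, fewer cells of a type and less RNA per cell cannot be told apart.

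Of the 10 genes, all of which passed the filter on low counts, Ccno was higher in the knockout and Ccnd3 lower, and 8 did not pass the threshold (adjusted p under 0.05 in edgeR's quasi-likelihood fit of 12003 genes). Those 2 calls are 20% of the 10, where 12.8% of all genes tested were called, 7.6% higher and 5.17% lower. Because the 10 were chosen with earlier results of these data known, nothing is drawn from the difference between these shares. The genotypes did not overlap in 5 of the 10 (Ccnd1, Ccnd2, Ccnd3, Ccne2 and Ccno), where 58.9% of all genes tested did not overlap. The median log2 fold change of the 10 was 0.02, beside -0.01 over all genes tested.

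The sequences before the start sites of the genes that passed, Ccnd3 and Ccno, are shown first, and beside them those of the B-type cyclins, whose promoters are known for paired CCAAT boxes. Of the 10 genes, 6 have an entry in the RefSeq promoter table used (build GRCm38.p6), and Ccnd3 has 2 start sites in it. Each run is the 250 bases before the start, 5′ to 3′ on the gene's strand. Capitals mark letter matches to the CCAAT box (CCAAT) and the cell cycle homology region (CHR, TTTGAA), searched on both strands. Ccno lies on the plus strand with this stretch at chr13:112987552-112987801, the Ccnd3 stretches are at chr17:47504801-47505050 and chr17:47593217-47593466 on the plus strand, Ccnb1 is at chr13:100786487-100786736 and Ccnb2 at chr9:70421555-70421804, both on the minus strand.
Ccno: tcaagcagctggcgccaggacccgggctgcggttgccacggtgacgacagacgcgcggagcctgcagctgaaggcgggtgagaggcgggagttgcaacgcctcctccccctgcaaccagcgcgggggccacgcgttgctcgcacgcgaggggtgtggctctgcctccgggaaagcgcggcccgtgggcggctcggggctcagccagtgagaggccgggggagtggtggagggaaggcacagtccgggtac
Ccnd3 first start: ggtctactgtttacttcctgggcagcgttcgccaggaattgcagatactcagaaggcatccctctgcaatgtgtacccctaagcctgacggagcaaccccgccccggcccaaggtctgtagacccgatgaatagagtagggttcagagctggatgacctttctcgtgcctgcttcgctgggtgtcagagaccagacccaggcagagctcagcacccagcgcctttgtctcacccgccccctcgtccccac
Ccnd3 second start: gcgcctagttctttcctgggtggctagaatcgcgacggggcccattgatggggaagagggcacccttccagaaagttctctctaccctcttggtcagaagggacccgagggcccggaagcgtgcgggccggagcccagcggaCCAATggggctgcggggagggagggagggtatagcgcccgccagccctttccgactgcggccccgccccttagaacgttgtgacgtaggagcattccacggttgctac
Ccnb1: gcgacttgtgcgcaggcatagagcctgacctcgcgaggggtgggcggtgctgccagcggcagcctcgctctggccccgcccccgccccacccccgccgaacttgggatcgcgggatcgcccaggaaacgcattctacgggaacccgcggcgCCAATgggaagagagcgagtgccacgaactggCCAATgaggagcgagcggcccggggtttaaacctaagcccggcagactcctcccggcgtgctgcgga
Ccnb2: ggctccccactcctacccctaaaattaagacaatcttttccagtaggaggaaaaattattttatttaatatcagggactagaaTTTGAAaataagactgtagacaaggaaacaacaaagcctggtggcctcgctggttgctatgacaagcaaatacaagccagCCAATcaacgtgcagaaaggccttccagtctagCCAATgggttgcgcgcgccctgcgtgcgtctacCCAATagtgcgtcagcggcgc

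CCAAT occurred 2 times before Ccnb1, with first bases 99 and 67 bases before the start, and 3 times before Ccnb2, at 87, 54 and 21. It occurred once before the second Ccnd3 start, at 108, and was not found in the windows of Ccno, the first Ccnd3 start, Ccne1 or Cdk6. Of 32851 promoters of the same length in the table, 33.8% held it. TTTGAA was found before Ccnb2 alone among the 6, at 167 bases, and in 16% of all promoters. That match lies farther from the start than the 3 CCAAT boxes of Ccnb2, and whether it works as a CHR was not tested. Only this spelling of the CHR was searched, so windows without TTTGAA may still hold one. An E2F site, spelled TTTCCCGC, TTTGGCGC, TTTCGCGC or TTTGCCGC, and a cyclic AMP response element, TGACGTCA, were not found in any of these 7 windows, and 1.86% and 1.55% of all promoters held them. Only these spellings were searched, and only before the start, so sites spelled otherwise or lying past the start may still be present. No motif overlapped another. The counts per gene do not say which Ccnd3 start site was used.

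Among the D-type cyclins, Ccnd3 fell and the other members did not pass the threshold. Ccnd3 stood at 620 and 649 CPM in wild type replicates 1 and 2 and at 297 and 236 in Rad21 KO replicates 1 and 2. Every knockout library was below every wild type library. The mean fell from 635 ± 20.4 to 266 ± 43.2 CPM (SD, n = 2), 2.38-fold, and the fitted log2 fold change was -1.25 (SE 0.13, 95% interval -1.56 to -0.94, adjusted p = 0.00274 by edgeR). Called falls of at least 2-fold made up 1.71% of all genes tested, and Ccnd3 ranked 254 from the lowest log2 fold change of 12003. Its call was kept under each of the 11 alternatives tried, with log2 fold changes from -1.56 to -1.08.

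Ccnd2 was a rare transcript in wild type, with 18 and 20 counts (2.46 and 2.77 CPM), and had 40 and 49 counts in the knockout (5.48 and 6.81 CPM). Both knockout libraries were above both wild type libraries. Its log2 fold change of 1.23 (SE 0.33, 95% interval 0.45 to 2) missed the threshold (adjusted p = 0.0537 by edgeR), and it did so under all 11 alternatives. Ccnd1 had 42 and 39 counts in wild type and 71 and 55 in the knockout, or 5.74 and 5.4 against 9.72 and 7.64 CPM. Again the libraries did not overlap, and the log2 fold change of 0.64 (SE 0.27, 95% interval 0.01 to 1.27) did not pass (adjusted p = 0.165 by edgeR).

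Summed over the 3 D-type genes, the level was 628 and 657 CPM in wild type and 312 and 250 in the knockout, so the sum followed Ccnd3. Ccnd1 and Ccnd2 together had 60 and 59 counts in the wild type libraries and 111 and 104 in the knockout. In counts not corrected for transcript length, Ccnd3 made up 98.7% (95% exact binomial interval 98.3 to 99) and 98.8% (98.4 to 99.1) of D-type counts in wild type, and 95.1% (94.2 to 96) and 94.2% (93 to 95.3) in the knockout. The intervals cover counting error only. The share was lower in each knockout library than in each wild type library. These sums and shares were not tested.

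**Figure D1:**
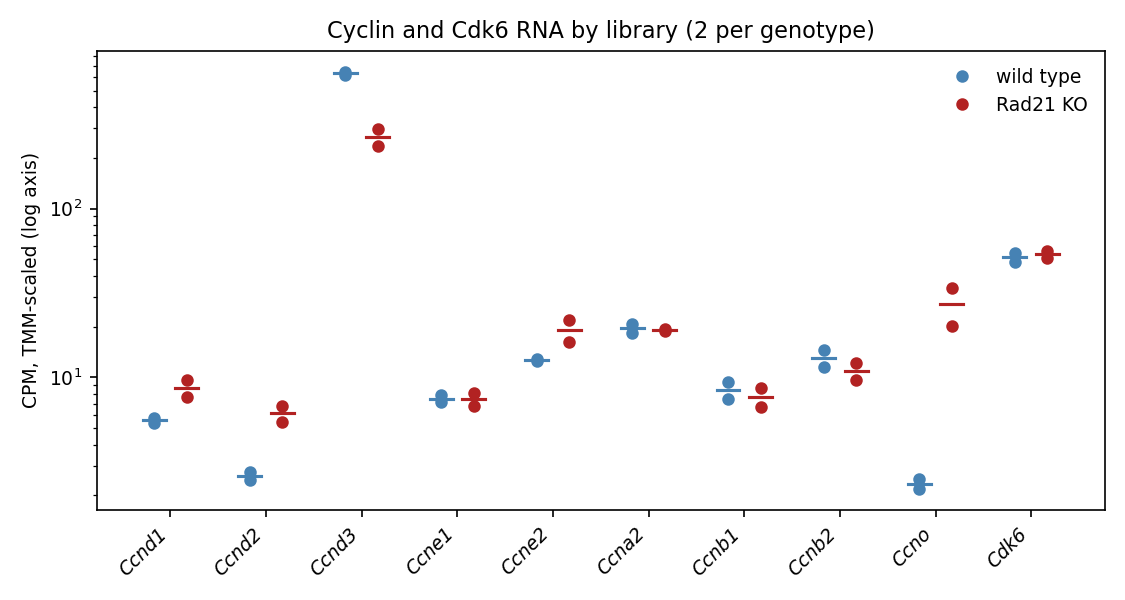
RNA level of the 10 genes in each library, as TMM-scaled CPM on a log axis, with wild type in blue, Rad21 KO in red, 1 point per library and a bar at the mean of 2 libraries. Ccnd3 falls from 620 and 649 to 297 and 236 CPM, Ccno rises from 2.19 and 2.49 to 20.1 and 34.1, and the points of Ccne1, Ccna2, Ccnb1, Ccnb2 and Cdk6 overlap between genotypes.

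Cdk6, the catalytic partner that D-type cyclins share with Cdk4, was measured at 48.5 and 54.7 CPM in wild type and 56.1 and 51 in the knockout. The libraries overlapped, and the log2 fold change was 0.05 (SE 0.13, 95% interval -0.26 to 0.36, adjusted p = 0.825 by edgeR). An interval of this width leaves out a change of the size seen for Ccnd3. Cdk4 was picked with its value known, and its log2 fold change was 0 (SE 0.12), with 54.9 and 58.9 CPM in wild type and 59.5 and 54.5 in the knockout.

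The E-type cyclins differed from each other in their values. Ccne1 had 7.11 and 7.89 CPM in wild type and 8.08 and 6.81 in the knockout, with a log2 fold change of -0.01 (SE 0.25, 95% interval -0.61 to 0.59). Ccne2 had 12.8 and 12.6 CPM in wild type and 16.2 and 21.8 in the knockout. The Ccne2 libraries did not overlap, and knockout replicate 2 was the highest of the 4. Its log2 fold change of 0.58 (SE 0.21, 95% interval 0.08 to 1.07) did not pass (adjusted p = 0.121 by edgeR). It passed narrowly without Rad21 KO replicate 1 (log2 fold change 0.79, adjusted p = 0.0498 by edgeR), and the difference between the genes was not tested.

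None of the cyclins of S phase, G2 and mitosis passed the threshold. Ccna2 had 20.8 and 18.3 CPM in wild type and 19.3 and 18.9 in the knockout (log2 fold change -0.03, 95% interval -0.43 to 0.36). Ccnb1 had 9.43 and 7.48 CPM in wild type and 8.62 and 6.67 in the knockout (log2 fold change -0.14, 95% interval -0.78 to 0.49). Ccnb2 had 14.5 and 11.5 CPM in wild type and 9.72 and 12.2 in the knockout (log2 fold change -0.24, 95% interval -0.79 to 0.3). The libraries of all 3 genes overlapped, and their adjusted p-values by edgeR were 0.926, 0.768 and 0.536. Their summed level was 44.7 and 37.3 CPM in wild type and 37.6 and 37.8 in the knockout. For the B-type genes, with 48 to 106 counts per library, a fall of up to the lower bounds given cannot be told from no change in these libraries.

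Ccno rose the most of the 10. It had 16 and 18 counts in wild type replicates 1 and 2 and 147 and 245 in Rad21 KO replicates 1 and 2, or 2.19 and 2.49 against 20.1 and 34.1 CPM. Each knockout library was far above each wild type library, and the knockout libraries also differed from each other. The mean rose from 2.34 ± 0.217 to 27.1 ± 9.85 CPM (SD, n = 2), 11.5-fold in the fit, and the fitted log2 fold change was 3.52 (SE 0.34, 95% interval 2.73 to 4.32, adjusted p = 0.00203 by edgeR). It ranked 24 from the highest log2 fold change of the 12003 genes tested, and called rises of at least 2-fold made up 3.6% of them. The call was kept under all 11 alternatives, with log2 fold changes from 3.11 to 3.86.

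**Figure D2:**
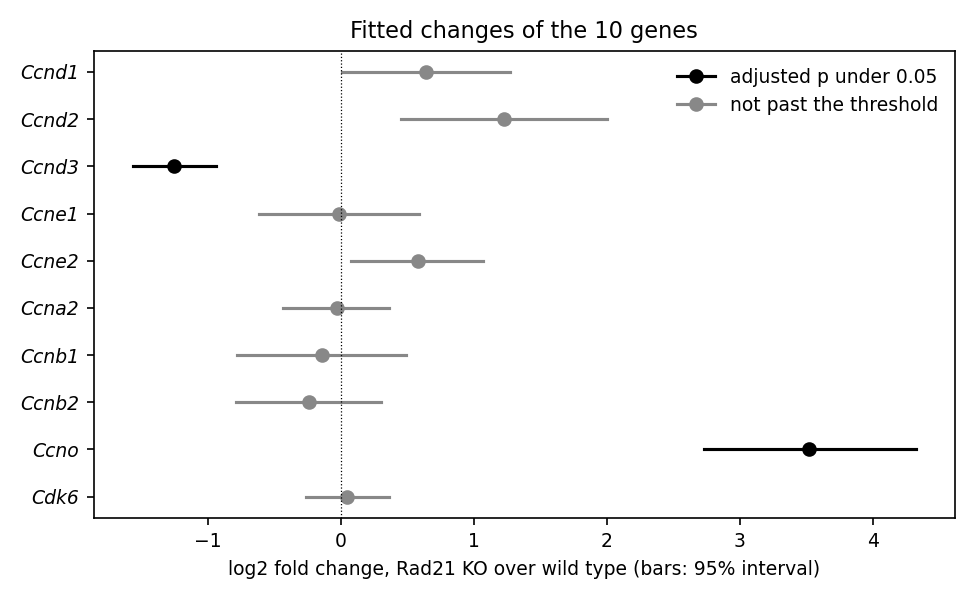
Fitted log2 fold change of each of the 10 genes, Rad21 KO over wild type, with its 95% interval as a bar. Black marks an edgeR adjusted p under 0.05: Ccno at 3.52 and Ccnd3 at -1.25. The intervals of Ccne1, Ccna2, Ccnb1, Ccnb2 and Cdk6 include 0.

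No other gene listed for multiciliated cells was called higher. Of 8 listed, 6 were in the table and 4 were abundant enough to test, of which 0 were higher and 1 was lower by edgeR. That is 25% called, beside 12.8% of all genes tested, where 7.6% were called higher. With only 4 genes tested, nothing is drawn from the absence of a higher call. Also 0 were higher at an unadjusted p under 0.05 or by DESeq2 or limma-voom. Mcidas, which encodes the multicilin regulator and lies next to Ccno, had 7 and 13 counts in wild type and 19 and 13 in the knockout (log2 fold change 0.67, SE 0.49, adjusted p = 0.411 by edgeR). The cilia regulator Foxj1, picked with its value known, had 15 and 18 counts against 24 and 25 (log2 fold change 0.57, SE 0.36, adjusted p = 0.348 by edgeR). Cdc20b, listed for the same cells, had at most 1 count in a library, under the floor of 3 counts. The gene that fell was Myb, a transcription factor that thymocytes express at high levels, from 1150 and 1170 to 750 and 843 CPM (log2 fold change -0.54, SE 0.11, adjusted p = 0.0265 by edgeR). Myb missed the threshold when knockout replicate 1, or any wild type library, was dropped (-0.61 to -0.45 over the 4 libraries dropped in turn).

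The protein-coding neighbours of the called genes, taken by name from the GRCm38 RefSeq gene order, are given with their values. Bysl, which follows Ccnd3 and encodes a protein of small ribosomal subunit assembly, had 55.1 and 78.8 CPM in wild type and 26.3 and 21.1 in the knockout. It was lower in each knockout library, and fell by 1.5 on the log2 scale (SE 0.21; edgeR adjusted p = 0.00647). Bysl and Ccnd3 overlap at their ends in that annotation, and whether counting used strand is not given in the sources used here. Reads from the overlap could be counted for either gene. The same holds for Ccnd1 with LTO1, Ccne2 with Ints8 and Ccna2 with Exosc9, which also overlap in that annotation. How far such reads entered the values of these genes was not tested. Taf8, a subunit of the general transcription factor TFIID on the other side of Ccnd3, had 57.7 and 79.2 CPM in wild type and 86.4 and 90.8 in the knockout (log2 fold change 0.37, SE 0.16, adjusted p = 0.184 by edgeR). Beside Ccno, the translation helicase gene Dhx29 had 29 and 24.1 CPM in wild type and 18.9 and 27 in the knockout (log2 fold change -0.21, SE 0.21, adjusted p = 0.56 by edgeR). Thus of 4 neighbours of the called genes only Bysl passed, in the direction of Ccnd3.

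**Figure D3:**
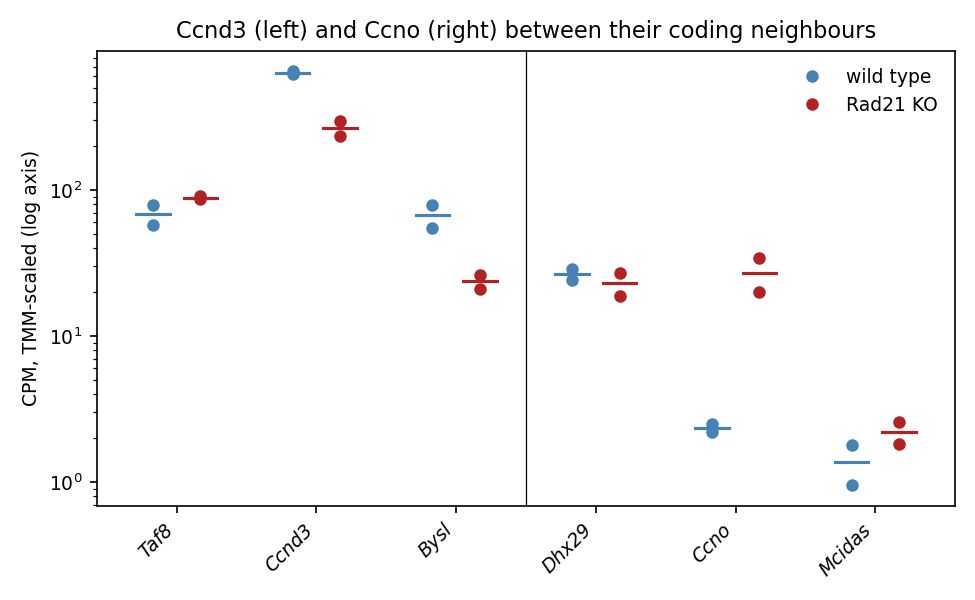
RNA level of Ccnd3 and Ccno between their nearest protein-coding neighbours, as TMM-scaled CPM on a log axis, 1 point per library and a bar at the mean of 2. Ccnd3 and Bysl are lower in Rad21 KO (red) than in wild type (blue) with no overlap, and Ccno is the only gene of the right-hand trio with knockout libraries far above wild type.

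Around the 8 genes that were not called, 14 neighbours were tested, of which 3 were lower and 0 higher (median log2 fold change 0.09). These 3, picked with their values known, were Parp11 next to Ccnd2 (-1.22, SE 0.2), Tpcn2 next to Ccnd1 (-0.67, SE 0.16) and Trp53inp1, a p53-induced gene next to Ccne2 (-0.49, SE 0.12). Counting all neighbours, 4 of 18 were called (22.2%) beside 12.8% of all genes tested, and by edgeR 1 was higher at an unadjusted p under 0.05, while DESeq2 and limma-voom called 0 higher and 3 and 4 lower. Without a filter on low counts, 0 of 19 were called.

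For each gene that passed, the 3 genes of at least 5 CPM with the nearest profile over the 4 libraries were found, by Euclidean distance of log2 CPM centred on each gene's mean. Nearest to Ccnd3 were the kinase gene Dclk2 (distance 0.0682), Rasgrp1, the exchange factor that links the T cell receptor to Ras (0.089), and Nrp1, a semaphorin co-receptor (0.117). Dclk2 stood at 137 and 139 CPM in wild type and 64.1 and 53.5 in the knockout. Nrp1 stood at 88.3 and 85 against 39.3 and 29.9. Nearest to Ccno, at larger distances, were the nuclear receptor gene Nr4a3 (0.443), the AP-1 subunit gene Fosl2 (0.535) and the noncoding RNA gene Lncpint (0.567), the last in a region of overlapping transcripts with uncertain counts. Like Ccno, Nr4a3 and Fosl2 were higher in knockout replicate 2 than in replicate 1, at 150 and 46.7 against 107 and 22.9 CPM. The choice by nearest profile favours such a likeness, so it is no separate result. These are descriptions of 4 libraries and were not tested.

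The other genes of cyclin and CDK control were read from lists of cyclins, kinases, inhibitors, E2F and retinoblastoma family genes, turnover genes and phase markers. These lists too were chosen with earlier results of these data known. Of 94 tested genes outside the 10, 10 were called, 2 higher and 8 lower. That is 10.6%, beside 12.8% of all genes tested, and DESeq2 called 2 higher and 3 lower. The median log2 fold change of each list lay between -0.09 and -0.01, except for the inhibitors at 0.59, where only 5 genes were tested.

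Among 16 other cyclins, 2 were lower, 0 higher and 14 did not pass, with a median of -0.09. They were Ccng2, an atypical cyclin linked to cell cycle arrest, from 215 and 192 to 157 and 153 CPM (log2 fold change -0.39, SE 0.1, adjusted p = 0.05 by edgeR after rounding, just past the threshold), and Ccnl2, a cyclin of the splicing machinery, from 392 and 405 to 293 and 318 CPM (-0.38, SE 0.1, adjusted p = 0.0483 by edgeR). No cyclin of this list was called higher by edgeR, DESeq2 or limma-voom, and 3 were higher at an unadjusted p under 0.05 by edgeR. Of 12 other CDKs and their activators, Cdc25b, a phosphatase that activates CDKs, was lower, from 47.4 and 41.4 to 29 and 30.6 CPM (-0.58, SE 0.14, adjusted p = 0.0408 by edgeR), and 0 were higher by edgeR, also at an unadjusted p under 0.05. Ccng2 (-0.48 to -0.31), Ccnl2 (-0.43 to -0.31) and Cdc25b (-0.67 to -0.48) each missed the threshold whichever of the 4 libraries was dropped. DESeq2 called Ccnl2 but neither Ccng2 nor Cdc25b, and Ccng2 passed under only 1 of the 11 alternatives.

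Of 5 tested CDK inhibitors 0 were called by edgeR, DESeq2 or limma-voom, and 1 passed an unadjusted p of 0.05 by edgeR. Their fitted values were above 0 for 4 and below 0 for 1. The list's median log2 fold change of 0.59 was the value of Cdkn3 (SE 0.44), picked with its value known. Cdkn3 had 31 and 20 counts in knockout replicates 1 and 2 and 22 and 12 in wild type, and the genotypes overlapped. Cdkn1b, which encodes p27, had 339 and 351 CPM in wild type and 439 and 402 in the knockout (log2 fold change 0.29, SE 0.1, adjusted p = 0.111 by edgeR). Cdkn2c, which encodes the Cdk4 and Cdk6 inhibitor p18, had 20.4 and 18.8 CPM against 19.6 and 18.9 (-0.03, SE 0.16). Cdkn1a, which encodes p21 and was picked with its value known, had 8 and 48 counts in knockout replicates 1 and 2 and 11 and 7 in wild type, so 1 knockout library was high and the genotypes overlapped.

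Among 17 genes of the retinoblastoma and E2F families and their partners, only Rbl2, which encodes the pocket protein p130 of resting cells, passed. It fell from 243 and 242 to 177 and 173 CPM (log2 fold change -0.47, SE 0.09, adjusted p = 0.0212 by edgeR), and missed the threshold when knockout replicate 2, or any wild type library, was dropped (-0.48 to -0.44). The list's median was -0.01. Of 22 genes of cyclin turnover, Fbxw7 and Skp1, which encode the receptor for cyclin E and the adaptor of the SCF ubiquitin ligase, were lower and 0 higher (median -0.03). Fbxw7 fell from 117 and 120 to 86.4 and 88.8 CPM (-0.44, SE 0.1, adjusted p = 0.0378 by edgeR) and Skp1 from 216 and 222 to 172 and 166 (-0.38, SE 0.09, adjusted p = 0.0443 by edgeR). Fbxw7 (-0.46 to -0.41) and Skp1 (-0.39 to -0.33) missed the threshold whichever of the 4 libraries was dropped, and DESeq2 called neither.

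Of 27 markers of S phase, G2 and mitosis, a list that holds Ccna2, Ccnb1 and Ccnb2, 2 were higher and 2 lower (14.8%, beside 12.8% of all genes) and 23 did not pass, with a median of -0.01. The summed level of the list was 1210 and 1380 CPM in the knockout and 1270 and 1230 in wild type, so the genotypes overlapped. The replication genes Cdt1 (log2 fold change 0.86, SE 0.16) and Pcna (0.54, SE 0.13) were the 2 higher, and the kinetochore genes Cenpe (-0.74, SE 0.17) and Cenpf (-0.72, SE 0.14) the 2 lower. Of these, Cdt1 was called whichever library was dropped (0.72 to 1). However, Cdt1 missed the threshold when scaled by library totals alone (0.59), and with no filter 0 of the 27 markers were called. Pcna missed the threshold when replicate 2 of either genotype was dropped (0.39 to 0.7 over the 4 libraries), Cenpe when knockout replicate 1 or any wild type library was (-0.9 to -0.58), and Cenpf when wild type replicate 1 was (-0.81 to -0.64).

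**Figure D4:**
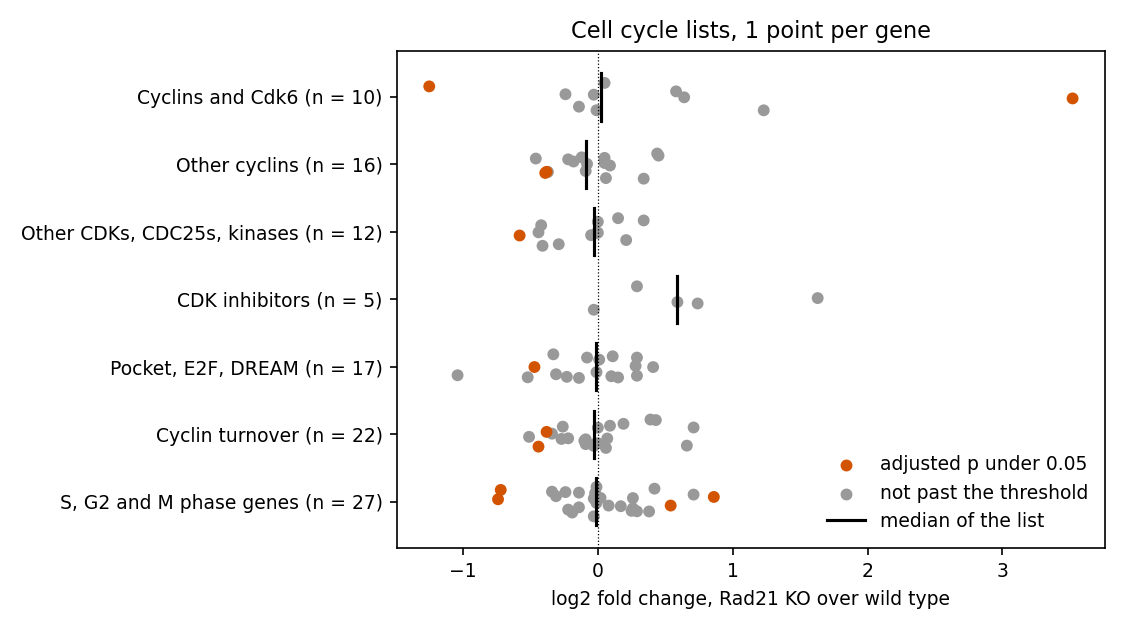
Log2 fold change of every tested gene in 7 cell cycle lists, Rad21 KO over wild type, with 1 point per gene, orange where the adjusted p was under 0.05 by edgeR, and a black line at each list's median. Ccno (3.52) and Ccnd3 (-1.25) lie at the outer edges, and the called genes of the other lists lie between -0.74 and 0.86.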

How the data were processed

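RNA-seq was read for 2 wild type and 2 Rad21 KO libraries of DP thymocytes, 4 of 13 samples in the series. Libraries were Illumina TruSeq, from total RNA after RiboMinus removal of ribosomal RNA, per the labels' protocols. The authors deposited estimated counts, which they call count equivalents, for each Ensembl gene, with totals that differ between libraries; rounding changed 0 values. The submitters' processing notes name the build mm9; the aligner, the counter and use of strand were not given in the sources used here. Overlapping genes and near-identical copies therefore have uncertain counts. The knockout columns spell the gene name "Rad1KO" and were matched by the rest of the name. ChIP peaks and Hi-C were not analysed here, since peak positions are in mm9 and no mm9 gene positions were used.

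Symbols matched 17342 of 17849 identifiers. Counts were tested with edgeR 4.0.16 (R 4.3.3): filterByExpr, TMM, quasi-likelihood fit of genotype without a block, and Benjamini-Hochberg adjustment over 12003 genes at 0.05. Standard errors and 95% intervals come from that fit. Alternatives were RLE size factors, library totals alone, DESeq2 1.42.0, limma-voom (limma 3.58.1), no filter, a replicate block, removal of Lars2 and Gm15564, and each library left out. In counts simulated at these depths for this comparison (11824 genes tested), recovery was 81 of 100 for planted 2-fold changes and 99 of 100 for 4-fold ones. Of 188 calls, 8 had no planted change. These recoveries are pooled over levels and give no recovery for rare transcripts such as Ccnd2. Replicates differed beyond sampling noise (chi-square per degree of freedom 85.9 for the knockout pair, which Lars2 enters, and 7.43 for wild type). A floor of 3 counts is 0.41 to 0.417 CPM. The genes and lists were chosen with earlier results of these data known. Named genes are Rad21, the 10 members, up to 5 called genes of each cell cycle list or otherwise its 2 most abundant, the 3 nearest profiles and the protein-coding neighbours of each called member; others are marked. RefSeq sequences were matched by symbol. A marker gene that the lists hold is not reported here.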

Additional observations from a re-analysis of the deposited data

How the results depend on the processing

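Ccno and Ccnd3 were called, in the same direction, under all 11 alternatives, and 2 of the 10 genes were called in each, or 3 without Rad21 KO replicate 1 (2 to 3 over the libraries left out in turn). Scaling by library totals alone moved the median of all genes to -0.29, changed the split of calls from 912 higher and 621 lower to 343 and 851, took the other cell cycle genes called from 10 to 4, and turned Cdk6 to -0.24. DESeq2 called 5 of those other genes. With no filter, where more genes are tested, 433 genes were called (285 higher, 148 lower) and 0 of the other cell cycle genes by edgeR, 21 of which passed an unadjusted p of 0.05. Leaving out 1 library gave 947 to 1438 calls (574 to 880 higher, 373 to 558 lower) and 2 to 7 other cell cycle genes. Small values changed sign on leaving out a library for Cdk6 (-0.03 to 0.14), Ccne1 (-0.13 to 0.12), Ccnb1 (-0.33 to 0.04) and Ccna2 (-0.13 to 0.06). The replicate block gave 381 lower calls and 4 other cell cycle genes; libraries sharing a number correlated at 0.0385 in their deviations and share only a number. With it, Ccno (3.5) and Ccnd3 (-1.26) kept their calls. The cause of these shifts was not tested. The interval for Ccnd2, at 18 to 49 counts per library, ran from 0.45 to 2. Whether depth or the spread between libraries decided its missed call was not tested.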
